A study of Mus musculus with 21 samples.

Results

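miR-124 and miR-9 are miRNAs of developing neurons, described here by both arms of their hairpins: mmu-miR-124-3p, mmu-miR-124-5p, mmu-miR-9-5p and mmu-miR-9-3p (written below without the mouse prefix mmu). They were chosen by name, as the entries of the deposited count table that carry these names, and are 4 of its 1647 mature miRNAs. The study sequenced small RNA from the cochlea and from the superior olivary complex (SOC), a group of auditory nuclei in the brainstem, at embryonic day 16 (E16), at birth (P0) and at postnatal day 16 (P16). All mice were untreated and of WT genotype, of the strain C57BL/6JOlaHsd for the cochlea and C57Bl6/J for the SOC, and each library came from tissue pooled over several animals. The cochlear tissue was the inner ear sensory epithelium, whose RNA was isolated with a Direct-zol kit and sequenced with the SMARTer smRNA-Seq kit. For the SOC, labelled neuronal, isolation used the innuPREP miRNA kit and sequencing used TruSeq Small RNA libraries. Kit and organ coincide, so that organ and kit cannot be told apart in any comparison of levels, and time points were compared within each organ. For E16, P0 and P16 in this order, the cochlea had 2, 4 and 4 libraries and the SOC had 4, 4 and 3. Total counts per library ran from 124400 to 447419 in the cochlea, with a median of 196885, and from 8309669 to 18053698 in the SOC, with a median of 11706138. Low cochlear counts are therefore less precise than SOC counts.

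miR-124 is strongly enriched in neurons, where it accumulates as progenitors leave the cell cycle and represses transcripts of other cell fates, among them that of the splicing regulator Ptbp1. In the inner ear it is known from the neurons of the ganglia. miR-9 is made in neural progenitors and in young neurons of the brain and acts on the timing of neurogenesis, and its arms target REST and its partner CoREST, which hold neuronal genes silent.

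The mature sequences show which reads can be assigned to which gene. The sequence table used, from RefSeq on build GRCm38.p6, matched 2 of the 4 members and had no entry for miR-124-3p and miR-124-5p. Each sequence is written 5′ to 3′ with its seed, bases 2 to 8, in capitals, and miR-9b-5p is shown because it lies opposite to miR-9-3p.
mmu-miR-9-5p: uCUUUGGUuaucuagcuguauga
mmu-miR-9-3p: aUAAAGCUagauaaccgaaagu
mmu-miR-9b-5p: uUCGGUUAucuagcuuuauga
The 3 have different seeds, and none of these seeds occurred under another name among the 1679 mature names of the RefSeq table. miR-9-5p has 23 bases and miR-9-3p has 22.

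There are 3 genes for miR-9, and their hairpins are shown with both arms in capitals so that the shared and the private bases can be seen.
Mir9-1: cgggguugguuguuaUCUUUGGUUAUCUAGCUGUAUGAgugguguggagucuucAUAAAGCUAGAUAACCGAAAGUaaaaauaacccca
Mir9-2: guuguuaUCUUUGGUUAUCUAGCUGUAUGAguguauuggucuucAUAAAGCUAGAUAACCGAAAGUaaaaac
Mir9-3: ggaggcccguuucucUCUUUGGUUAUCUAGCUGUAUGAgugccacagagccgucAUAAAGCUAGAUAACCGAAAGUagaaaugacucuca
The arms are identical in all 3 genes, and the loops between them, of 16, 14 and 16 bases, are not. A mature miR-9 read therefore cannot be assigned to 1 of the 3 genes. Mir9-1 lies at chr3:88215598-88215686 in introns of the long noncoding RNA gene Gm3764, with 0 of 5 overlapping transcripts carrying it in an exon. Mir9-2 lies at chr13:83738814-83738885 in C130071C03Rik, in an exon of 2 of 3 transcripts. Mir9-3 lies at chr7:79505264-79505353 in introns of Mir9-3hg, with 0 of 4 transcripts carrying it in an exon. All 3 hairpins are on the plus strand.

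miR-124 also comes from 3 annotated genes. Mir124a-1 lies at chr14:64590657-64590741 in exons of both transcripts of the long noncoding RNA gene Mir124a-1hg. Mir124a-2 lies at chr3:17795662-17795770 within Mir124-2hg, in an exon of 1 of 6 transcripts. Mir124a-3, at chr2:180894040-180894107, has no annotated host gene. The table gives 1 total per arm, so the counts do not say which of these genes was used.

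The 11 SOC libraries fell into 3 sets that the labels do not explain, as read from miRNAs other than the members. In set A, miR-99b-5p took 17.2% to 19.6% of all counts, against 1.43% to 3.84% in the other libraries. In set C, miR-191-5p took 0.277% to 0.322% of counts, against 3.84% to 8.15% in the others, and set B held the rest. Set A comprised E16 replicates 2 and 3 and P0 replicates 2 and 3. Set B comprised E16 replicates 1 and 4, P0 replicate 1 and P16 replicate 1, and set C comprised P0 replicate 4 and P16 replicates 2 and 3. Set C thus had no E16 library and 2 of the 3 P16 libraries. Changes and arm ratios of the members in the SOC are given below from all libraries, from a fit with the set as a covariate, and with the 3 set C libraries left out, the last chosen after seeing the data. Results for lists of other miRNAs are from all libraries.

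**Figure D1:**
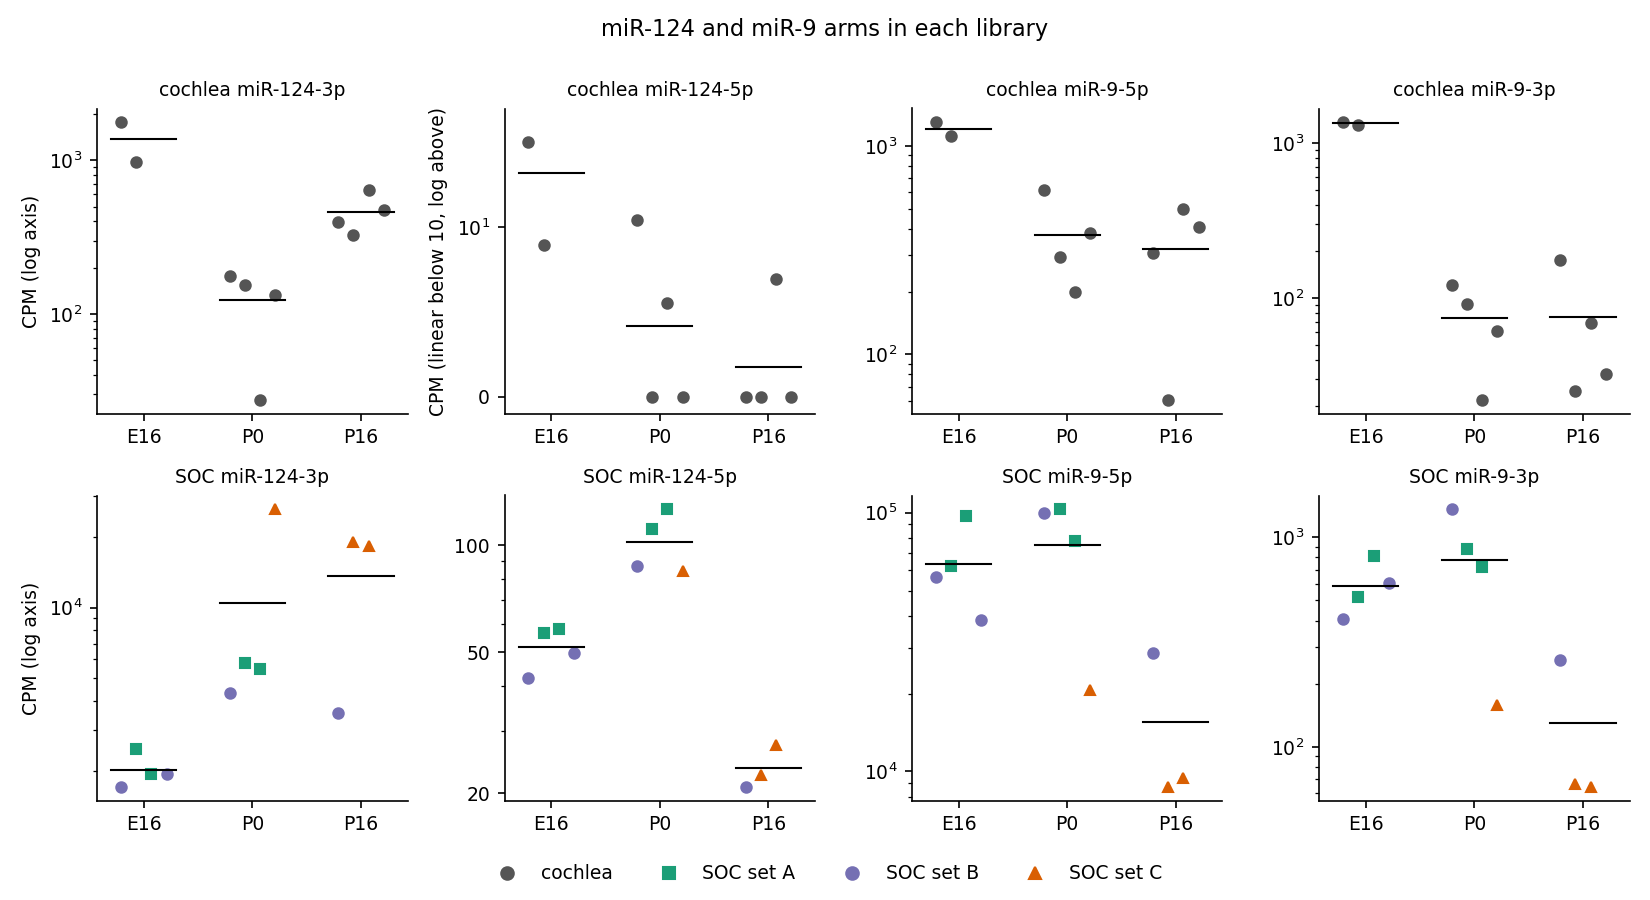
CPM of the 4 members in each library, by time point, on log axes except for cochlear miR-124-5p, whose axis is linear below 10. Black lines are group means, and symbols in the SOC mark the library set: the set C triangles are the highest for miR-124-3p and the lowest for both miR-9 arms at P0 and P16.

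Levels are given as CPM, counts scaled to the same total in every library. A change was tested with edgeR on TMM-scaled counts over all miRNAs above 1 CPM in at least 2 libraries of a time point. It was called when the adjusted p was under 0.05, the fold change over 1.5 and the scaled values of the compared time points did not overlap. All 4 members passed the filter in both organs, together with the rest of 896 miRNAs in the cochlea and 694 in the SOC. The comparisons P0 vs E16 and P16 vs E16 share the E16 libraries.

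miR-124-3p, the neuronal guide arm, had 1768 and 977 CPM in the cochlea at E16. The P0 libraries had 177, 154, 27.5 and 133 CPM, in replicate order. Those at P16 had 396, 328, 638 and 474 CPM. The 3 time points did not overlap, with E16 highest, P0 lowest and P16 between them, and P0 replicate 3 stood below the other P0 libraries with 5 counts. In bulk tissue such a change can come from fewer cells that make the miRNA or from less of it per cell, and these cannot be told apart. The log2 change was -3.03 ± 0.44 (SE) from E16 to P0 (edgeR adjusted p = 2.2e-10) and 1.94 ± 0.39 from P0 to P16 (edgeR adjusted p = 1.3e-05). Both were called under all 17 alternatives, with ranges of -3.48 to -2.52 and 1.63 to 2.2.

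The net change from E16 to P16 was smaller and less certain, with a log2 change of -1.09 ± 0.42 (edgeR adjusted p = 0.0337, called). It was called under 11 of 17 alternatives, with adjusted p from 0.00177 to 0.715 and values from -1.65 to -0.32. Without E16 replicate 1, the higher of the E16 libraries, it was -0.69 and not called (edgeR adjusted p = 0.401); the lone E16 library left is then assumed to vary like the other groups.

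miR-9-5p, the arm that targets REST, had 1297 and 1120 CPM at E16 in the cochlea. Its P0 values were 614, 294, 198 and 384 CPM. Its P16 values were 306, 60.5, 499 and 410 CPM. Both E16 libraries were above every later one, the P0 and P16 libraries overlapped, and P16 replicate 2 was lowest with 12 counts. The log2 change was -1.26 ± 0.42 from E16 to P0 (edgeR adjusted p = 0.0147) and -1.54 ± 0.42 from E16 to P16 (edgeR adjusted p = 0.00166), both called. From P0 to P16 it was -0.28 ± 0.37 and not called (edgeR adjusted p = 0.678). The P0 call rested on single libraries: it was lost without E16 replicate 1 (-1.14), E16 replicate 2 (-1.46), P0 replicate 2 (-1.19) or P0 replicate 3 (-1.09). Over all 18 alternatives the P0 change ran from -1.70 to -0.70 with adjusted p from 9.6e-04 to 0.459, and 12 called it. The P16 change ran from -1.93 to -1.02 with adjusted p from 1.0e-04 to 0.261, and 16 called it.

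miR-9-3p, the arm that targets CoREST, had 1359 and 1316 CPM at E16 in the cochlea. Values at P0 were 122, 91.6, 22.0 and 61.4 CPM. Values at P16 were 176, 25.2, 69.3 and 32.2 CPM. E16 stood far above the later time points, which overlapped each other and held 4 to 35 counts per library. The log2 change was -3.73 ± 0.47 from E16 to P0 (edgeR adjusted p = 4.2e-13) and -3.64 ± 0.47 from E16 to P16 (edgeR adjusted p = 1.0e-12). Both were called under all 17 alternatives that gave a value, with ranges of -4.16 to -3.17 and -4.51 to -3.33, the last being -4.51 without P16 replicate 1. After P0 the log2 change was 0.09 ± 0.45 (edgeR adjusted p = 0.953, not called), from -0.77 to 0.41 over the alternatives.

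miR-124-5p, the minor arm of miR-124, was close to the detection limit in the cochlea. It had 10 and 4 counts at E16. At P0 it had 2, 0, 1 and 0 counts, and at P16 it had 0, 0, 1 and 0. E16 replicate 2, at 8.94 CPM, was below P0 replicate 1, at 11.1 CPM. The summed ratios that follow thus rest mostly on E16 replicate 1. The summed share of counts at E16 was 4.94 times that at P0 (95% counting interval 1.38 to 26.8) and 12.9 times that at P16 (1.96 to 545). These intervals, and the floors of 3 counts used below, cover counting error only, as PCR copies are not separate molecules. edgeR called no change, at an adjusted p of 0.286 from E16 to P0, 0.112 from E16 to P16 and 0.710 from P0 to P16. The second was called in 1 of 17 alternatives, without P16 replicate 3 (edgeR adjusted p = 0.0470), over an adjusted p of 0.0470 to 0.504.

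Against the background of all tested miRNAs in the cochlea, 24.4% were called from E16 to P0, 29.6% from E16 to P16 and 10.5% from P0 to P16. Of the 4 members, 3 were called in the first comparison, 3 in the second and 1 in the third. The median log2 change of all 896 miRNAs was 0 from E16 to P0, where 46 had a larger decrease than miR-9-3p and 88 a larger one than miR-124-3p. From P0 to P16, 128 had a larger increase than miR-124-3p. Scaling matters for the split of calls: with TMM, 70 miRNAs were called higher and 149 lower at P0, and with library totals alone 36 and 195, as the median moved by -0.38. From E16 to P16 the split went from 98 and 167 to 65 and 212, with a shift of -0.50. The changes of miR-124-3p and both miR-9 arms from E16 were negative under each scaling.

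In the SOC, miR-124-3p had 1714, 2491, 1944 and 1945 CPM at E16. At birth it had 4293, 5783, 5467 and 26279 CPM, and at P16 it had 3528, 18994 and 18365 CPM. It ranked 31 to 40 among the miRNAs of each E16 library and 7 to 26 in later ones. Every later library was above every E16 library, and the 3 highest values were those of the set C libraries. The log2 change from E16 to P0 was 2.29 ± 0.68 and not called (edgeR adjusted p = 0.0609). With the set as a covariate it was 1.20 and called (edgeR adjusted p = 5.6e-04), and without set C it was 1.19 and called (edgeR adjusted p = 0.0189). Leaving out P0 replicate 1 (2.62) or P16 replicate 1 (2.2) also made it a call. Over 21 alternatives the adjusted p ran from 5.6e-04 to 0.180, and 8 called it.

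From E16 to P16 the log2 change of SOC miR-124-3p was 2.58 ± 0.72 (edgeR adjusted p = 0.0129, called), and 81 of 694 miRNAs had a larger increase. It was called under all 21 alternatives, with adjusted p from 4.8e-04 to 0.0441, but its size depended on the sets. It was 0.97 with the set as a covariate (edgeR adjusted p = 0.00450) and 1.16 without set C (edgeR adjusted p = 0.0441), where P16 replicate 1 is the only P16 library and is assumed to vary like the other groups. Between P0 and P16 no alternative gave a call, at 0.29 with all libraries, -0.23 with the covariate, -0.03 without set C and 1.43 without P0 replicate 4, the highest, where the scaled values still overlapped. Within set B, the only set with all time points, the level was 1714 and 1945 CPM at E16, 4293 at P0 and 3528 at P16.

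SOC miR-124-5p, the minor arm, had 42.2, 56.7, 57.9 and 49.7 CPM at E16. P0 libraries had 87.0, 111, 126 and 84.5 CPM, and P16 libraries had 20.9, 22.5 and 27.3 CPM. The 3 time points did not overlap, with P0 highest and P16 lowest, and the set C libraries did not stand apart: at P0 theirs was the lowest value, 84.5 beside 87.0, and at P16 they were above replicate 1. The decrease from P0 to P16 was called, with a log2 change of -2.05 ± 0.38 (edgeR adjusted p = 0.00515), and under all 21 alternatives (-2.19 to -1.70). With the set as a covariate it was -1.75 (edgeR adjusted p = 7.8e-05) and without set C -1.84 (edgeR adjusted p = 0.0369), over an adjusted p of 8.2e-09 to 0.0369.

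The other changes of this arm were smaller. From E16 to P0 the log2 change was 0.84 ± 0.33 and not called (edgeR adjusted p = 0.153). It was called with the covariate (0.83, edgeR adjusted p = 0.00675) and not without set C (0.89, edgeR adjusted p = 0.0627), over a range of 0.00675 to 0.441. From E16 to P16 it was -1.21 ± 0.37 (edgeR adjusted p = 0.0195, called), -0.92 with the covariate (called) and -0.95 without set C (not called). That call was lost without E16 replicate 2 (-1.13), E16 replicate 3 (-1.09), P16 replicate 2 (-1.04) or P16 replicate 3 (-1.24), and 13 of 21 alternatives made it. Its adjusted p ran from 6.4e-04 to 0.256.

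SOC miR-9-5p was among the most abundant miRNAs, with 56162, 62343, 97016 and 38336 CPM at E16. Later it had 99714, 102928, 77361 and 20604 CPM at P0, and at P16 it had 28561, 8726 and 9414 CPM. It ranked 3 to 9 in the E16 and P0 libraries and 6, 16 and 16 at P16. The P16 libraries were below every E16 library in CPM, P0 overlapped both, and the 3 lowest values were those of set C. The log2 change was 0.02 ± 0.61 from E16 to P0 (edgeR adjusted p = 0.992) and -2.04 ± 0.71 from P0 to P16 (edgeR adjusted p = 0.0632), neither called. The first was 0.35 with the covariate and 0.33 without set C, not called in either. From E16 to P16 it was -2.02 ± 0.71 (edgeR adjusted p = 0.0360), not called because the scaled values of 34475 in P16 replicate 1 and 33600 in E16 replicate 4 overlapped.

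The E16 to P16 decrease of SOC miR-9-5p was -0.78 with the set as a covariate (edgeR adjusted p = 0.0636) and -0.83 without set C (edgeR adjusted p = 0.321), not called in either. Of 21 alternatives 8 called it, among them leaving out E16 replicate 4 (-2.24), P0 replicate 3 (-2.01), P0 replicate 4 (-2.00) or P16 replicate 1 (-2.92), over an adjusted p of 0.00578 to 0.321. From P0 to P16 it was -1.14 with the covariate, at an edgeR adjusted p of 0.00811, and not called because scaled values not adjusted for the set overlap (P16 replicate 1 above P0 replicate 4). Without set C it was -1.16 and not called (edgeR adjusted p = 0.238), over a range of 0.00811 to 0.238. It was called without P0 replicate 4 (-2.39) or P16 replicate 1 (-2.99). In set B the level was 56162 and 38336 CPM at E16, 99714 at P0 and 28561 at P16.

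SOC miR-9-3p had 407, 520, 815 and 607 CPM at E16. It had 1356, 879, 721 and 159 CPM at P0, and at P16 it had 258, 66.5 and 64.5 CPM. It followed miR-9-5p: the P16 libraries were below every E16 library, and the set C libraries were the 3 lowest. Between E16 and P16 the log2 change was -2.11 ± 0.74 (edgeR adjusted p = 0.0356, called), -0.90 with the covariate (called) and -0.83 without set C (not called). The call was lost without E16 replicate 2 (-2.15), E16 replicate 3 (-1.84), P16 replicate 2 (-1.75) or P16 replicate 3 (-1.72), and its adjusted p ran from 0.00364 to 0.230 over 21 alternatives, 15 of them calls. Without P16 replicate 1 it was -3.25. From E16 to P0 the log2 change was 0.18 ± 0.64 (edgeR adjusted p = 0.908), 0.52 with the covariate and 0.52 without set C, never called.

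From P0 to P16 SOC miR-9-3p changed by -2.30 ± 0.75 (edgeR adjusted p = 0.0506), not called. With the covariate it was -1.43 at an edgeR adjusted p of 0.00187, and not called because the scaled values of P16 replicate 1 and P0 replicate 4 overlap, a rule applied to values not adjusted for the set. It was -1.35 without set C (edgeR adjusted p = 0.105, not called), and was called without P0 replicate 4 (-2.69) or P16 replicate 1 (-3.49). The adjusted p ran from 0.00187 to 0.165.

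**Figure D2:**
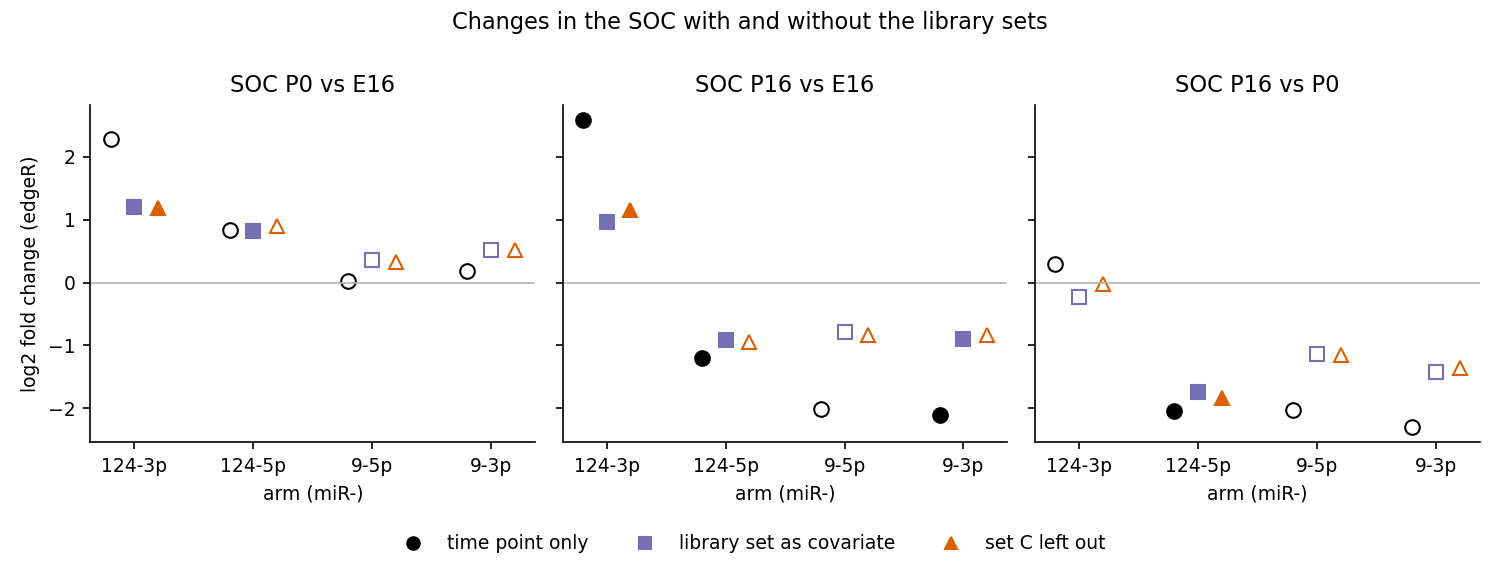
Log2 changes of the 4 members in the SOC from 3 edgeR fits: time point only (circles), with the library set as a covariate (squares) and without the set C libraries (triangles), filled where called. The increase of miR-124-3p from E16 to P16 is 2.58, 0.97 and 1.16 in the 3 fits, and the decrease of miR-124-5p from P0 to P16 is filled in all.

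In the SOC 6.63% of all tested miRNAs were called from E16 to P0, 41.2% from E16 to P16 and 16.1% from P0 to P16, beside 0, 3 and 1 of the 4 members. For the 0 from edgeR, 2 members had an unadjusted p under 0.05, and DESeq2 called 2. With the set as a covariate, edgeR called 2 members from E16 to P0 and 96 miRNAs in all. The median log2 change of all 694 miRNAs was 0.17, 0.08 and -0.15 in the 3 comparisons. For P0 vs E16 the split of 17 higher and 29 lower with TMM became 25 and 26 with library totals alone, a shift of the median by 0.12. With library totals the change of miR-124-3p was 2.37 and called (edgeR adjusted p = 0.0481, within the range given above).

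The difference between the organs was tested on the change over time, as an organ by time interaction in 1 edgeR fit of the 21 libraries, where a kit effect that is the same at each time point drops out. It was called at an adjusted p under 0.05 over 545 miRNAs tested in both organs. For E16 to P0, 11.9% of these were called, for E16 to P16 16.9%, and for P0 to P16 6.42%, beside 2, 1 and 0 of the 4 members. For the 0 from edgeR, 2 members had an unadjusted p under 0.05, and DESeq2 called miR-9-3p (-2.68, DESeq2 adjusted p = 0.0311). miR-124-3p changed by 5.23 ± 0.91 log2 units more in the SOC than in the cochlea from E16 to P0 (edgeR adjusted p = 5.7e-04), with a decrease in the cochlea and higher values in every SOC library of P0 than in any of E16. From E16 to P16 its difference was 3.61 ± 0.92 (edgeR adjusted p = 0.00924). For miR-9-3p the difference from E16 to P0 was 3.90 ± 0.96 (edgeR adjusted p = 0.00771), with a decrease in the cochlea and overlapping values in the SOC.

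These 3 interactions were called under all 28 alternatives, and their sizes ran from 4.07 to 5.85, from 1.85 to 4.33 and from 3.07 to 4.58. With the set as a covariate they were 4.13, 1.85 and 4.19, and without set C 4.09, 1.98 and 4.22. The first value was lowest without SOC P0 replicate 4, at 4.07. The 1.85 had an edgeR adjusted p of 0.0125, in a range of 6.3e-04 to 0.0411. For miR-9-5p no difference was called, at 1.21 ± 0.84 for E16 to P0 and -0.61 ± 0.89 for E16 to P16, except with the covariate for E16 to P0 (1.52, edgeR adjusted p = 0.0314, range 0.0314 to 0.521). Without set C that value was 1.51. The E16 to P16 value changed sign, to 0.52 with the covariate and 0.44 without set C. For miR-9-3p the E16 to P16 difference was 1.38 ± 0.99 (edgeR adjusted p = 0.386, range 0.00988 to 0.873, not called), and was called with the covariate (2.50) and without set C (2.56). It was 0.31 without SOC P16 replicate 1 and 2.27 without cochlear P16 replicate 1, not called in either. From P0 to P16 edgeR gave -1.83 ± 0.81 for miR-9-5p (adjusted p = 0.166, range 0.0259 to 0.410) and -2.52 ± 0.95 for miR-9-3p (adjusted p = 0.102, range 0.0101 to 0.325). Both became calls without SOC P0 replicate 4 (-2.08 and -2.82) or SOC P16 replicate 1 (-2.65 and -3.58), and neither with the covariate (-0.996 and -1.68) or without set C (-1.07 and -1.66). For miR-124-3p it was -1.63 ± 0.87 (edgeR adjusted p = 0.262, range 0.00207 to 0.629), called with the covariate (-2.28) and not without set C (-2.11) or without SOC P0 replicate 4 (-0.46). For miR-124-5p, near the floor in the cochlea, the E16 to P0 interaction was not called (edgeR adjusted p = 0.0761, range 0.0196 to 0.481), and 4 of 28 alternatives called it, among them leaving out cochlear P0 replicate 1 (edgeR adjusted p = 0.0460). The organs also differ in strain, dissection and depth, so these tests compare the datasets as they were made.

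The ratio of the arms of a hairpin is taken within a library and does not depend on the scaling between libraries. It was tested with limma over all hairpins with a mean of at least 5 counts per arm, 92 in the cochlea and 226 in the SOC. In the cochlea miR-9 had 0.955 and 0.851 counts of miR-9-5p per count of miR-9-3p at E16. At P0 the ratios were 5.05, 3.21, 9 and 6.25, and at P16 they were 1.74, 2.40, 7.20 and 12.8. At E16 the arms were thus nearly equal, and in every later library the 5p arm exceeded the 3p arm, which fell to counts of 4 to 35. The log2 change of the ratio was 2.55 ± 0.73 from E16 to P0 (limma adjusted p = 0.0239) and 2.22 ± 0.73 from E16 to P16 (limma adjusted p = 0.0339), both called. Among all hairpins 22.8% and 37% were called in these comparisons, and 8.7% from P0 to P16, where the miR-9 ratio changed by -0.32 ± 0.60 (limma adjusted p = 0.797).

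The cochlear arm ratio rests on 2 E16 libraries. The P0 call was lost without E16 replicate 1 (2.63), E16 replicate 2 (2.46), P0 replicate 3 (2.34) or P0 replicate 4 (2.48). The P16 call was lost without E16 replicate 1 (2.30), E16 replicate 2 (2.14), P16 replicate 3 (1.98) or P16 replicate 4 (1.74). All 13 alternatives kept the direction, from 1.80 to 2.79 at P0 (adjusted p 0.00664 to 0.149) and from 1.47 to 2.65 at P16 (adjusted p 0.0155 to 0.168). With each E16 library left out, the number of all hairpins called from E16 to P0 fell from 21 to 1 and 2, and the number from E16 to P16 from 34 to 5 and 6. The number from P0 to P16 was 8 with all libraries and ran from 2 to 15 with 1 left out.

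In the SOC the E16 libraries had 63.2 to 138 counts of miR-9-5p per count of miR-9-3p, the P0 libraries 73.6 to 130 and the P16 libraries 111 to 146. These ranges overlapped, and no alternative called a change: the log2 change was -0.01 from E16 to P0, 0.28 from E16 to P16 and 0.29 from P0 to P16. With the covariate the 3 values were -0.14, 0.14 and 0.28, and without set C -0.12, 0.07 and 0.18.

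miR-124 was the opposite case in the SOC. The counts of miR-124-3p per count of miR-124-5p were 40.6, 43.9, 33.6 and 39.2 at E16. At P0 they were 49.3, 52.2, 43.4 and 311, and at P16 they were 169, 844 and 672. The set C libraries had the 3 highest ratios, and P16 replicate 1 of set B was above all E16 libraries and above the P0 libraries of sets A and B. The log2 ratio of 5p over 3p changed by -3.55 ± 0.73 from E16 to P16 (limma adjusted p = 0.0111, called), by -1.89 with the set as a covariate (limma adjusted p = 3.6e-04) and by -2.11 without set C (limma adjusted p = 0.0238). Without P16 replicate 1 it was -4.26. That call was lost without P16 replicate 2 (-3.10) or P16 replicate 3 (-3.27), and the adjusted p ran from 3.6e-04 to 0.0791 over 16 alternatives.

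From P0 to P16 the miR-124 ratio changed by -2.57 ± 0.73 (limma adjusted p = 0.0678, not called). It was called with the covariate (-1.52, limma adjusted p = 0.00166), without P0 replicate 4 (-3.25) or without P16 replicate 1 (-3.29), and not without set C (-1.81), over 0.00166 to 0.270. From E16 to P0 it changed by -0.97 ± 0.68 (limma adjusted p = 0.895), by -0.37 with the covariate and by -0.30 without set C, and no alternative called it. For P0 vs E16 in the SOC limma called 0% of the 226 hairpins, with 11 at an unadjusted p under 0.05 and 3 called with the set as a covariate. For P16 vs E16 12.4% were called and for P16 vs P0 3.54%. These numbers rest on single libraries: the 28 hairpins of P16 vs E16 became 4 without P16 replicate 2 and 73 without P16 replicate 1, and the 8 of P16 vs P0 became 2 without P16 replicate 2 and 55 without P0 replicate 4. With the covariate they were 37 and 33, and without set C 9 and 3. In the cochlea miR-124-5p was under the count minimum, so its arm ratio was not tested there.

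**Figure D3:**
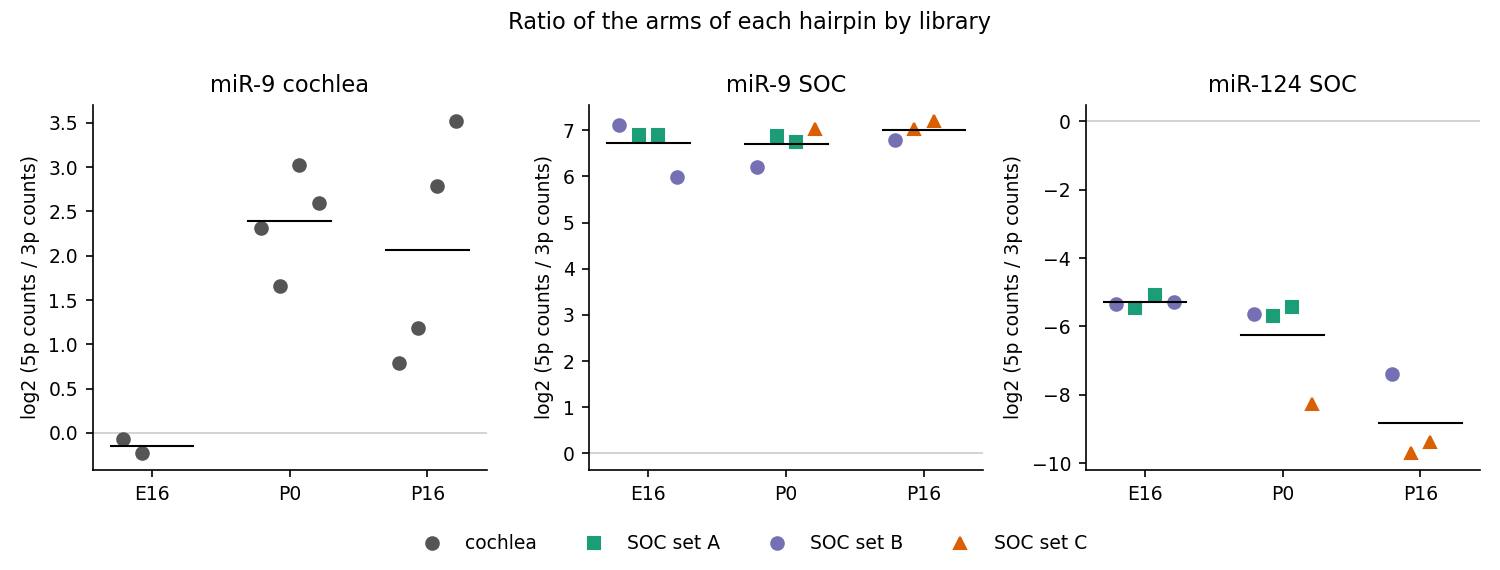
Log2 ratio of 5p to 3p counts for miR-9 in the cochlea and the SOC and for miR-124 in the SOC, 1 point per library, with group means as black lines and the line at 0 marking equal arms. Cochlear miR-9 moves from near 0 at E16 to positive values, SOC miR-9 lies between 5.98 and 7.19, and SOC miR-124 is lowest in the set C libraries and at P16.

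The balance of the main arms, miR-124-3p per miR-9-5p, is also a ratio within a library and was described without a test. In the cochlea it was 1.36 and 0.872 at E16, 0.288, 0.525, 0.139 and 0.347 at P0, and 1.30, 5.42, 1.28 and 1.16 at P16. P0 was below both other time points in every library, and the 5.42 of P16 replicate 2 goes with its 12 counts of miR-9-5p. In the SOC it was 0.0200 to 0.0507 at E16, 0.0431, 0.0562, 0.0707 and 1.28 at P0, and 0.124, 2.18 and 1.95 at P16. Set C had the only SOC ratios above 1, and in the other libraries P16 replicate 1 was highest. Kits can favour one sequence over another, so the ratios are compared over time and not between the organs.

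**Figure D4:**
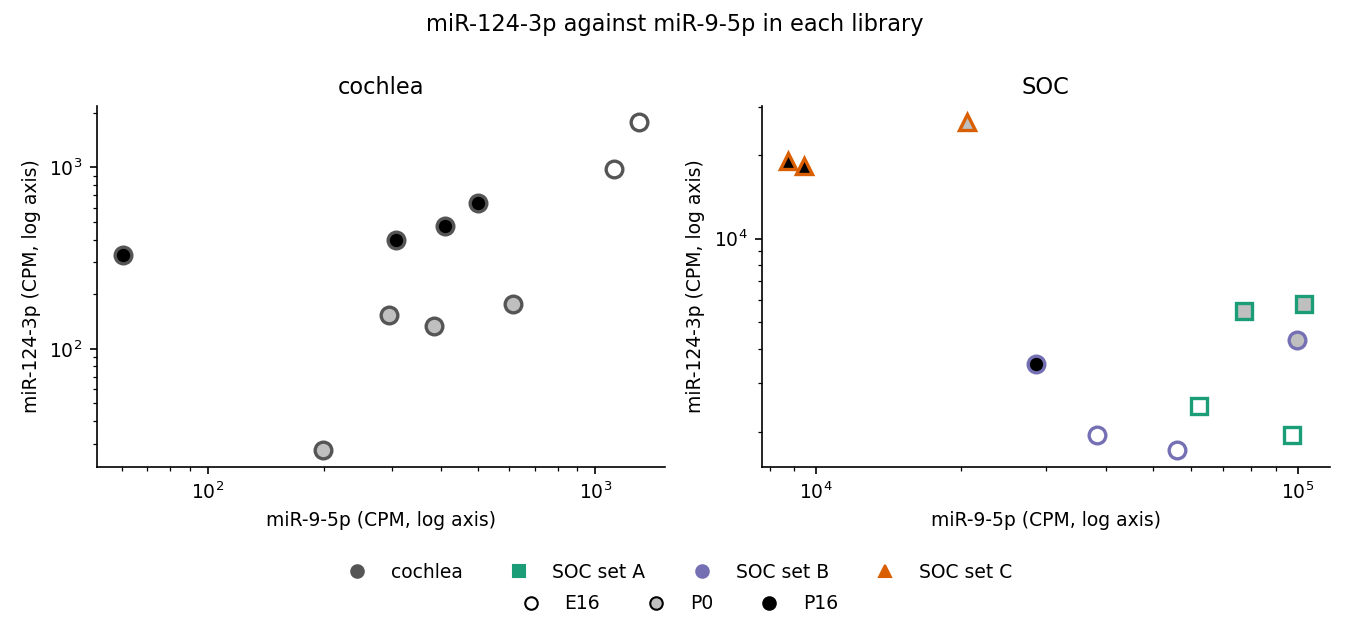
miR-124-3p against miR-9-5p in CPM on log axes, 1 point per library, with the fill giving the time point and, in the SOC, shape and edge colour giving the set. In the SOC the 3 set C libraries sit alone at 18365 to 26279 CPM of miR-124-3p and 8726 to 20604 CPM of miR-9-5p.

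How the members varied together is given as Pearson r of log2 scaled CPM and as a description only, since libraries of 1 time point are not independent of it. Over the 11 SOC libraries r was 0.97 between the miR-9 arms, -0.16 between the miR-124 arms and -0.71 between miR-124-3p and miR-9-5p. Over the 10 cochlear libraries r was 0.74 between the miR-9 arms and 0.39 between miR-124-3p and miR-9-5p, and miR-124-5p, at 0 counts in 5 of them, was left out. The SOC values share the sets with the other miRNAs of these libraries.

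The miRNAs whose profile was most like a member were taken by Pearson r among those that reached a mean of 100 CPM at any time point. In the cochlea, of 295 candidates over 10 libraries, miR-384-5p (0.894), miR-3071-3p (0.892) and miR-140-5p (0.875) were nearest to miR-124-3p. Nearest to miR-9-5p were miR-7b-5p (0.971), miR-429-3p (0.920) and miR-183-5p (0.920). In the SOC, of 211 candidates over 11 libraries, miR-598-3p (0.973), miR-154-5p (0.936) and miR-770-3p (0.934) were nearest to miR-124-3p. Nearest to miR-9-5p there were miR-125b-2-3p (0.984), miR-30c-5p (0.974) and miR-488-3p (0.972).

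Entries close to the members by name were near 0 in the cochlea. miR-9b-5p, whose bases lie on the strand opposite to miR-9-3p with 19 shared positions, had 0 to 39 counts per SOC library and 1 count in 1 cochlear library. miR-124b-3p had 48 to 270 counts per SOC library and 0 in every cochlear library. Beside them, SOC miR-9-3p had 553 to 24053 counts and miR-124-3p had 19628 to 234291. miR-124-5p had 187 to 1634, so that miR-124b-3p was not small beside this arm, with 91 against 187 counts in P16 replicate 2.

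The label of neuronal miRNAs was checked against 12 other brain-enriched miRNAs. In the cochlea 11 of them were tested: from E16 to P0 1 was called higher and 5 lower, with a median log2 change of -1.60 (-1.17 with those at 3 counts or fewer set to their bound) beside 0 for all miRNAs. From E16 to P16 2 were called higher and 5 lower (median -2.19, or -0.91 at bounds, beside -0.09), and from P0 to P16 1 was called higher. Over all miRNAs 24.4%, 29.6% and 10.5% were called in these comparisons, in either direction. Their most abundant one, miR-128-3p, changed by -1.60 and -1.76 from E16 to P0 and P16, both called. In the other direction, miR-129-5p was called higher in both comparisons, by 2.63 and 2.17, with at most 14 counts per library. miR-153-3p fell from 255 counts over both E16 libraries to 4 at P0 and 4 at P16, a ratio of 67.4 (95% counting interval 26.0 to 249) and 58.7 (22.7 to 217). These ratios are of summed counts by library totals, and the 4 counts at P16 were all in 1 library. Its edgeR log2 changes were -5.44 and -5.17, both called. miR-7a-5p is among those called lower at P16, but had at most 12 counts per library at E16 and 0 at P16. Against a floor of 3 counts per library its decrease is bounded only at 1-fold. miR-138-5p was the one called higher from P0 to P16, by 2.46. Summed over the list, CPM was 2743 and 3160 at E16, 952, 641, 534 and 763 at P0, and 817, 509, 1026 and 989 at P16. Like miR-9, the sum of the list was highest at E16 in the cochlea. While miR-124-3p rose from P0 to P16, miR-128-3p changed by -0.16, miR-132-3p by 0.78 and miR-218-5p by 0.90, none of them called, and the sums overlapped.

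In the SOC 10 of the list were tested. From E16 to P0 1 was called higher and 0 lower (median 0.77 beside 0.17), from E16 to P16 3 and 3 (0.32 beside 0.08), and from P0 to P16 3 and 2 (-0.83 beside -0.15). Over all miRNAs 6.63%, 41.2% and 16.1% were called, so the 6 of 10 from E16 to P16 stand beside a high share. The most abundant, miR-138-5p, rose by 3.36 from E16 to P16, and miR-132-3p and miR-212-3p by 3.26 and 3.11. The size of the miR-138-5p increase depended on the sets. At P16 the set C libraries had 21744.5 and 22495.2 CPM of it, against 10460.4 in replicate 1 of set B. At P0 the set C library had 9944 CPM, against 2665 to 4540 in the others. The set B libraries of E16 had 2070 and 3048 CPM. miR-135a-5p was at 0 in every P16 library, at least 8.25-fold lower than at E16 against a floor of 3 counts per library. The list summed to 4455 to 7537 CPM at E16, 10012 to 16030 at P0 and 17231 to 27940 at P16. These sums did not overlap between time points, but miR-138-5p carried those at P16. Without it the list summed to 3476 to 4490 CPM at E16, 6086 to 9461 at P0 and 5196 to 6770 at P16, where P0 and P16 overlapped.

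**Figure D5:**
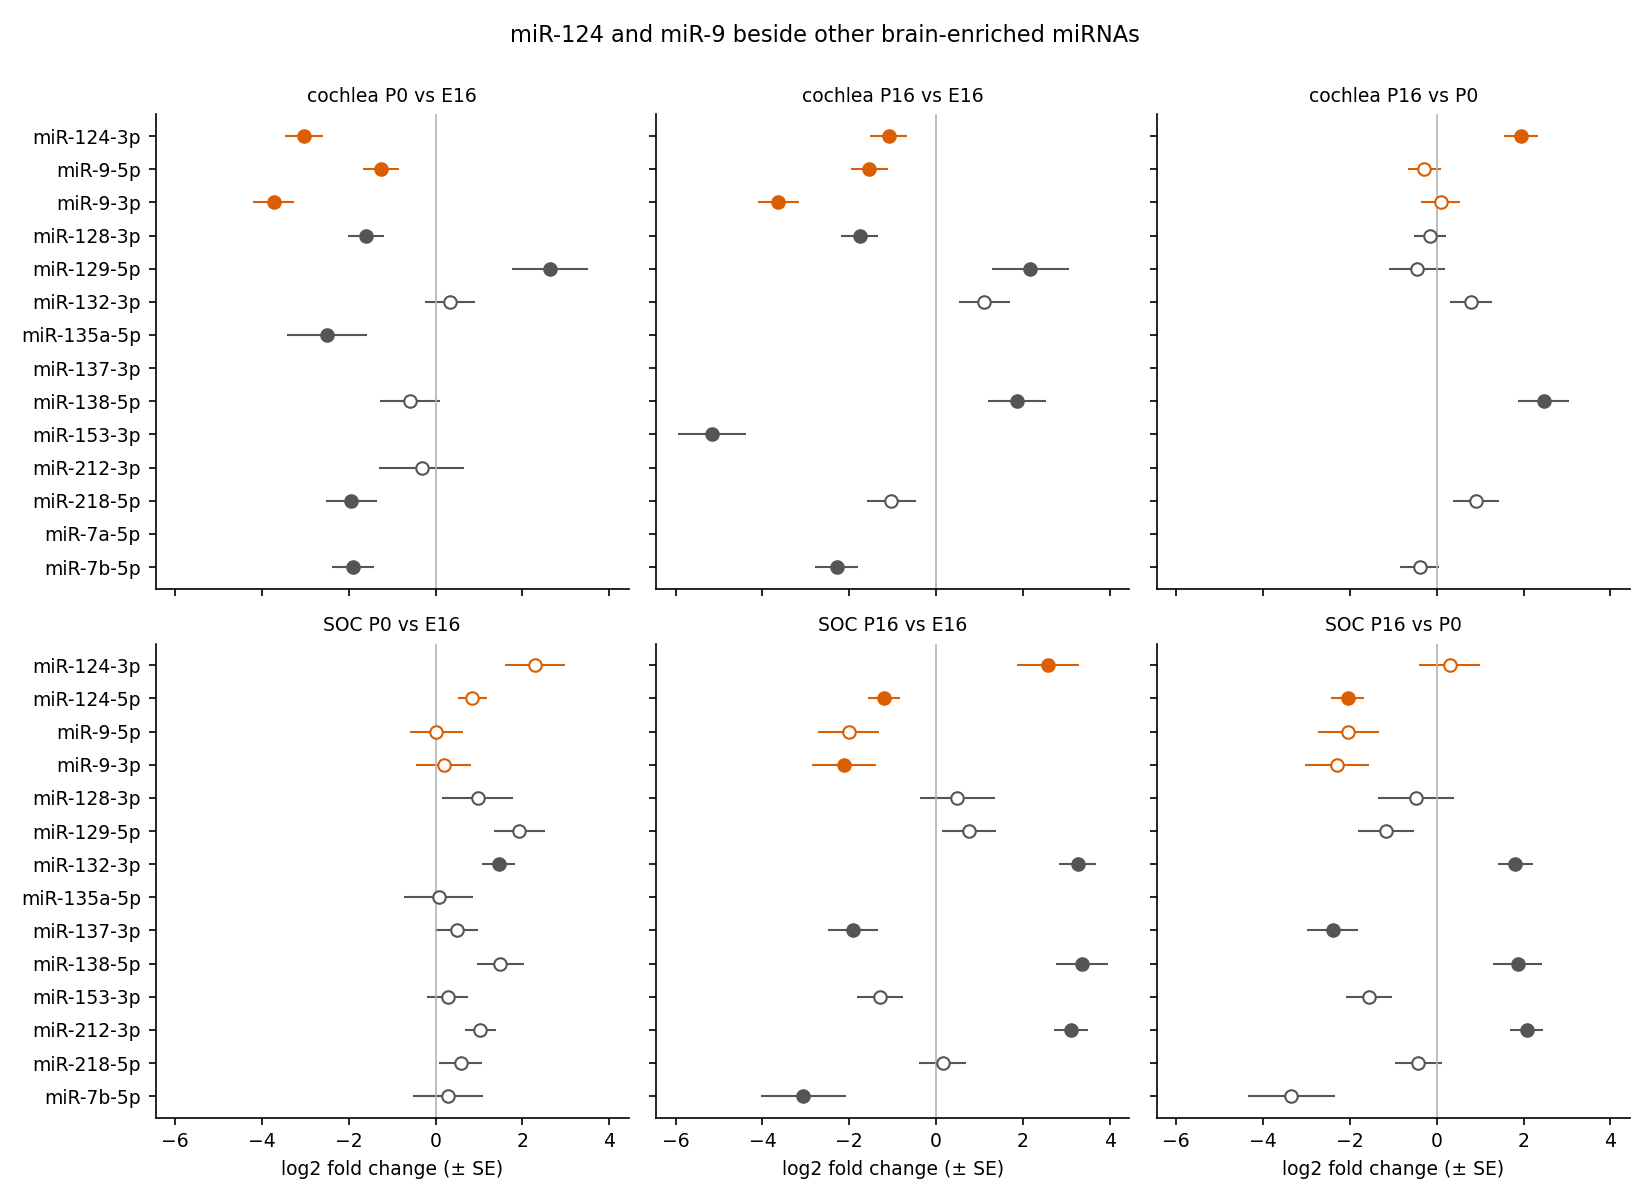
Log2 changes with SE from edgeR for the members (orange) and the other brain-enriched miRNAs (grey), by organ and comparison, filled where called. miRNAs with 3 counts or fewer in every library of a compared time point are not drawn, nor is cochlear miR-124-5p; in the cochlea most filled points from E16 are negative, and in the SOC miR-124-3p, miR-132-3p, miR-138-5p and miR-212-3p are positive from E16 to P16.

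Of 5 other miRNAs that act in neural progenitors, 3 were called higher and 0 lower in the cochlea from E16 to P0 (median 1.86 beside 0), 4 and 0 from E16 to P16 (2.23 beside -0.09) and 1 and 0 from P0 to P16 (0.66 beside 0.05). Their most abundant, miR-125b-5p, rose by 1.86 and 2.23 from E16 to P0 and P16. Over all cochlear miRNAs 24.4%, 29.6% and 10.5% were called in the 3 comparisons, in either direction. In the SOC 1 was higher and 0 lower from E16 to P0 (0.50 beside 0.17), 2 and 1 from E16 to P16 (0.28 beside 0.08), and 1 and 1 from P0 to P16 (-0.14 beside -0.15). There let-7b-5p had the largest called increase, 5.06 from E16 to P16. It started close to the filter of 1 CPM, with 1.03 to 1.66 CPM at E16, and had 14.4 to 72.8 CPM at P16. Over all SOC miRNAs 6.63%, 41.2% and 16.1% were called, so the calls from E16 to P16 stand beside a high share. miR-137-3p is in this list and in the brain-enriched one.

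Some markers of other cell types also changed over the same time points, in either direction, and others did not. Their part in the member changes was not tested. Their calls stand beside the shares of all miRNAs given with the brain-enriched list. In the cochlea, of 4 tested blood and endothelial miRNAs 4 were called lower at P0 than at E16, and 2 higher at P16 than at P0. Their sum was 9987 and 10185 CPM at E16, 836 to 1694 at P0 and 1774 to 7587 at P16, most of it miR-126a-3p, and so had the same order of time points as miR-124-3p. The red cell miRNA miR-451a is among those called lower, but had at most 9 counts per library at E16 and 0 in every later library. Against a floor of 3 counts per library its decrease at P0 is only bounded at 1.10-fold. In the SOC this sum was 7356, 4423 and 6668 CPM in the set C libraries and 829 to 1795 in the others, again most of it miR-126a-3p. That miRNA was thus high where miR-124-3p was high. Of 5 miRNAs of this list tested in the SOC, 1 was called higher and 1 lower from E16 to P16. These were miR-451a, by 1.52, and miR-223-3p, by -2.28.

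The hair cell list does not mark the sensory epithelium alone here, as its miRNAs were also high in the SOC at E16, given below. In the cochlea all 3 were present in every library. Their sum was 69631 and 71872 CPM at E16, 31182 to 39320 at P0 and 10805 to 40102 at P16, mostly miR-183-5p. Their median log2 change was -0.97 from E16 to P0 and -0.88 from E16 to P16, with 3 of 3 not called by edgeR. P16 replicate 2, with the lowest miR-9-5p, had the lowest sum. The 7 epithelial miRNAs summed to 19611 and 29053 CPM at E16, mostly miR-429-3p, then 4848 to 8075 at P0 and 1618 to 6930 at P16. Of these, 3 were called lower and 0 higher from E16 to P0 and to P16 in the cochlea. Sums of both lists were thus lower after E16, as were both miR-9 arms, and a link was not tested. The sums are scaled by library totals and not by TMM. Of the 4 epithelial miRNAs not called from E16 to P0, miR-205-5p changed by 1.00 and miR-200c-3p by 0.05. The others were miR-200b-3p at -0.86 and miR-141-3p, near the floor, at -1.86.

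In the SOC the hair cell list was high at E16, at 97018 to 147946 CPM, mostly miR-182-5p, then 4236 to 29682 at P0 and 592 to 2901 at P16, with 1 of 3 called lower at P0 and 3 of 3 at P16. Epithelial miRNAs summed to 930 to 1855 CPM at E16 and 45.6 to 201 later, with 3 of 4 tested called lower in both comparisons with E16. Oligodendrocyte miRNAs were high at P16: 3 of 3, from 2 hairpins, were called higher than at E16 in the SOC, with sums of 213 to 592 CPM before P16 and 4086 to 7553 at P16. In the cochlea the 2 tested, both arms of the miR-338 hairpin, were called higher, with sums of 55.9 to 128 CPM before P16 and 464 to 1415 at P16. There miR-219a-2-3p had at most 4 counts per library and was not tested. The SOC label neuronal thus covers tissue that also held glial and other miRNAs.

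Muscle miRNAs, 2 tested per organ, had 1 called lower at P0 and 1 higher at P16 than at E16 in the cochlea, where miR-1a-3p led a sum of 711 to 4487 CPM at P16. In the SOC 1 was called lower at both times, and the sum was 96.9 to 276 CPM at E16 and 9.65 to 28.2 later. Of 5 mesenchymal miRNAs, 1 was higher and 3 lower at P0 and 1 and 2 at P16 than at E16 in the cochlea, where miR-214-3p led, with sums of 45430 to 77213 CPM before P16 and 16294 to 22109 at P16. In the SOC 0 were higher and 3 lower at both times, with sums of 13645 to 26686 CPM over all libraries, mostly miR-143-3p.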

How the data were processed

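The authors deposited raw counts, the number of reads per mature miRNA, for 21 libraries. According to the study's methods Bowtie aligned reads to the mouse miRNAs of MirGeneDB. The processing notes name Bowtie2 2.2.5 and mm10, and the table uses miRBase names, so how the counts were made is not known. Changes were tested per organ with edgeR 4.0.16 (TMM, quasi-likelihood F test) in R 4.3.3, organ by time interactions over all libraries, and arm ratios with limma 3.58.1 on log2 ratios with a pseudocount of 0.5. P-values were adjusted by Benjamini-Hochberg over all miRNAs or hairpins tested. SE is the log2 change divided by the root of F. DESeq2 1.42.0, RLE factors, library totals, quantile normalization, other filters, 1 fit of all libraries, the replicate block, the SOC set and leaving out each library were the alternatives. SOC set A has over 10% of counts on miR-99b-5p and set C under 1% on miR-191-5p. Scripts were tested on simulated data. Figures used matplotlib 3.10.9, pandas 2.3.3 and numpy 2.4.6 in Python 3.11.15.

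Replicate numbers were checked as pairs: deviations from group means correlated in 4 of 4 SOC pairs of E16 and P0 (r 0.251 to 0.490), and not throughout elsewhere. In the SOC pairs of P0 and P16, r was 0.548 for replicate 1, of set B at both times. It was -0.465 and -0.601 for replicates 2 and 3, of set A at P0 and set C at P16. A pairing by replicate number thus cannot be told apart from the sets. The members and the lists (brain-enriched, neural progenitor, oligodendrocyte, hair cell, epithelial, muscle, mesenchymal, blood and endothelial) were chosen with earlier results of these data known. Not every miRNA of a list was named, and those named include some that were not called. Gene positions come from GENCODE vM21.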

Additional observations from a re-analysis of the deposited data

Results flagged for a closer look

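miR-124-3p in SOC P0 replicate 4, at 26279 CPM, stood apart from the other P0 libraries, which had 4293 to 5783. The same library had the lowest log2 ratio of miR-124-5p to miR-124-3p at P0, -8.28, against -5.71 to -5.44 in the others. It belongs to set C, whose P16 libraries had a like level of miR-124-3p (18365 and 18994 CPM). In the cochlea at P16, miR-124-5p was 6.93 CPM in replicate 3 and 0 in the other libraries, which is 1 count, and any single count would stand apart in this way. For measured values the gap used here is set to arise by chance in about 1 in 20 groups.

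The change over time differed between the organs for miR-124-3p, by 5.23 log2 units from E16 to P0 and by 3.61 from E16 to P16, and for miR-9-3p by 3.90 from E16 to P0, each as an organ by time interaction in edgeR. With the SOC set as a covariate these values were 4.13, 1.85 and 4.19, and without set C 4.09, 1.98 and 4.22. What causes these differences was not tested.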

How the results depend on the processing

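Of the alternatives, none turned a called change around. The called changes of cochlear miR-124-3p (P0 vs E16, P16 vs P0) and miR-9-3p (both from E16), of SOC miR-124-3p (P16 vs E16) and miR-124-5p (P16 vs P0), and the 3 called interactions kept direction and call wherever they were tested. The results below did not keep their side of the threshold, or their count moved by over 1.5 times; beyond what an alternative's construction shows, the cause was not tested.

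Cochlear miR-124-3p (P16 vs E16) was not called with DESeq2 (-1.04), quantile normalization (-0.32), no filter (-1.11), all 21 libraries in 1 fit (-0.99) or the replicate block (-0.87). Cochlear miR-9-5p was not called with quantile normalization (-0.70 at P0, -1.02 at P16) or in 1 fit (-1.26 and -1.41). The cochlear miR-9 arm ratio lost both calls with the replicate block (1.80 and 1.47), and the P16 call with a filter of 1 count per arm in 2 libraries (2.22).

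In the SOC at P0 vs E16, miR-124-3p was called with DESeq2 (2.28), library totals (2.37), no filter (2.14), 1 fit (2.40), the set covariate (1.20) and without set C (1.19), and miR-124-5p with DESeq2 (0.84) and the covariate (0.83). At P16 vs E16, miR-124-5p was not called with quantile normalization (-0.91), no filter (-1.25), 1 fit (-0.74) or without set C (-0.95), and miR-9-3p not with at least 10 counts in every library (-2.00) or without set C (-0.83). miR-9-5p was called there with DESeq2 (-2.03), RLE factors (-2.03), library totals (-2.03) and no filter (-2.02). The miR-124 arm ratio of P16 vs P0 was called with the replicate block (-2.91) and the covariate (-1.52).

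Interactions gained a call for miR-9-3p at P16 vs P0 with DESeq2 (-2.68) and the replicate block (-2.79), and at P16 vs E16 with the covariate (2.50) and without set C (2.56). With the covariate they did so for miR-9-5p at P0 vs E16 (1.52) and miR-124-3p at P16 vs P0 (-2.28).

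Counts of all called miRNAs moved too. With at least 10 counts in every library, which tests fewer miRNAs, they were 93, 104 and 54 in the cochlea (in the order P0 vs E16, then P16 vs E16, then P16 vs P0), 189 in the SOC (P16 vs E16), and 32, 38 and 20 for interactions. In 1 fit the cochlea had 115 (P0 vs E16) and 61 (P16 vs P0). For P0 vs E16 the SOC had 84 with DESeq2, 96 with the covariate and 97 without set C, and interactions numbered 120 with DESeq2, 143 with library totals, 170 with the covariate and 119 without set C. For P16 vs P0 interactions numbered 78 with DESeq2, 13 with no filter, 70 with the replicate block and 93 with the covariate.

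Hairpins with a called arm ratio numbered 44, 49 and 18 in the cochlea with a pseudocount of 5, and 14, 18 and 6 with the replicate block, in the same order. With 1 count per arm in 2 libraries the cochlea had 22 (P16 vs E16). In the SOC they were 76 (P16 vs E16) and 47 (P16 vs P0) with the replicate block, and for P16 vs E16 45 with the pseudocount of 5, 43 with 1 count per arm in 2 libraries and 9 without set C. For P16 vs P0 they were 33 with the covariate and 3 without set C, and for P0 vs E16 3 with the covariate.

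Leaving out 1 library at a time gave these ranges. In the cochlea they were -1.58 to -1.09 for miR-9-5p (P0 vs E16), -1.65 to -0.69 for miR-124-3p (P16 vs E16), and 2.34 to 2.79 and 1.74 to 2.65 for the miR-9 arm ratio at P0 and P16. In the SOC miR-124-3p ran from 1.24 to 2.62 (P0 vs E16). For P16 vs E16 miR-124-5p ran from -1.30 to -1.04, miR-9-5p from -2.92 to -1.66 and miR-9-3p from -3.25 to -1.72. For P16 vs P0 miR-9-5p ran from -2.99 to -1.67 and miR-9-3p from -3.49 to -1.89. The miR-124 arm ratio ran from -4.26 to -3.10 (P16 vs E16) and from -3.29 to -2.13 (P16 vs P0), and interactions at P16 vs P0 from -2.65 to -1.41 for miR-9-5p and from -3.58 to -1.63 for miR-9-3p. The interaction of miR-124-3p at P16 vs P0 ran from -1.88 to -0.46, and at P16 vs E16 those of miR-9-3p from 0.31 to 2.27 and of miR-9-5p from -1.46 to -0.35.

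Counts of called miRNAs ran from 114 to 255 and from 176 to 282 in the cochlea at P0 and P16 vs E16, from 23 to 60 in the SOC at P0 vs E16 and from 66 to 248 at P16 vs P0. Interactions ran from 31 to 91 for P0 vs E16, from 53 to 147 for P16 vs E16 and from 20 to 102 for P16 vs P0.

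Depth limits the cochlea most: 3 counts are a mean of 8.79 CPM at E16, 15.7 at P0 and 18.8 at P16, against 0.232 at E16 in the SOC. With at least 10 counts in every library, cochlear miR-124-3p, miR-124-5p and miR-9-3p were not tested, so that alternative gave no value for them. With 2 E16 libraries in the cochlea, and 1 P16 library in the SOC without set C, the spread of a group is borrowed from the others. Only set B holds both E16 and P16 libraries, so the covariate fit of P16 vs E16 within a set rests on few libraries.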
